A study of Rattus norvegicus with 36 samples.

Results

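The genes described here carry peptides from the proteasome to major histocompatibility complex (MHC) class I molecules: B2m, Tap1, Tap2, Tapbp, Psmb8, Psmb9, Psmb10, Psme1, Psme2 and Nlrc5. They were chosen by gene name, as genes of this pathway, and all 10 names were found among the 24275 genes of the expression tables. Tap2 was listed under 2 gene identifiers, so the 10 names gave 11 entries.

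The cells were H9C2, a rat cardiac myoblast line grown from heart tissue. A control oligonucleotide (MC), a miR-125b mimic or 1 of 4 mimics of miR-125b isomiRs, which differ from miR-125b only at the 3′ end, was transfected at 25 nmol/L over 24 h. Another 24 h in normoxia or in hypoxia followed, and 3 libraries were sequenced per group. Read counts were at hand for 33 libraries in 11 groups: in hypoxia MC, miR-125b, the lengthened isomiR Plus A and the shortened Trim A, Trim AG and Trim AGU, and in normoxia the same without MC. For MC in normoxia only the authors' group mean was used. Hypoxic cells also received serum-free, low-glucose medium and normoxic cells fresh standard medium, so oxygen and medium cannot be told apart. All groups share 1 cell line, transfection with a small RNA and its reagent. Totals ran from 28361216 to 42672584 counts per library, with a median of 29923694. The 3 libraries of Trim AG in hypoxia were the deepest, at 39940087 to 42672584 counts, and no other library passed 34505938. Depth and mimic therefore cannot be told apart in that group. Trim AGU replicate 2 in hypoxia had counts for 16981 genes, against 18342 to 19451 genes in the other libraries. Nothing in the labels says that the libraries of a group came from separate cultures, so the p-values measure only the spread between libraries, which may be technical.

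Class I molecules show fragments of a cell's own proteins at its surface to cytotoxic T cells. The proteasome cuts the proteins, and the immunoproteasome, in which Psmb8, Psmb9 and Psmb10 take the places of the constitutive catalytic subunits Psmb5, Psmb6 and Psmb7, favours fragments with ends that class I can bind. Psme1 and Psme2 form the PA28 cap that opens the proteasome, Tap1 and Tap2 form the pump that moves peptides into the endoplasmic reticulum, Tapbp (tapasin) holds empty class I molecules beside that pump, B2m is the class I light chain, and Nlrc5 is a transactivator that binds class I promoters. Most of these genes are best known for rising together under interferon.

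The 5 mimics share the seed and differ by a single to a few bases at the 3′ end. They are shown, from the RefSeq mature miR-125b-5p (GRCr8, chr11:29732588-29732609, plus strand), because every comparison between mimics rests on these last bases. Capitals mark the seed, bases 2 to 8.
miR-125b: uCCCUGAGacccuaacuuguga
Plus A: uCCCUGAGacccuaacuugugaa
Trim A: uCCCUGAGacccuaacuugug
Trim AG: uCCCUGAGacccuaacuugu
Trim AGU: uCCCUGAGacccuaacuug
The mimics were 22, 23, 21, 20 and 19 bases long in that order.

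RefSeq promoters, 250 bases before to 50 bases after the gene start in GRCr8, were at hand for 9 of the 10 genes, all but Nlrc5. They were searched on both strands for the core of the interferon-stimulated response element (ISRE), GAAANNGAAA. It was found in 7 of the 9, in B2m, Tap1, Tap2, Tapbp, Psmb8, Psmb10 and Psme2, against 3.92% of all 33469 promoters in the table. Psmb9 and Psme1 held no match in this window. The second interferon motif searched, TTCNNNGAA (GAS), reads the same on both strands and was found in 1 of the 9, Psmb8, against 8.87% of all promoters. The 6 stretches below are shown because genes that share the ISRE core went different ways in these cells. Each is 30 bases on the gene's strand and lies before the gene start, and capitals mark the match.
B2m (chr3:129549170-129549199, plus strand): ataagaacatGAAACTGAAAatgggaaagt
Tap1 (chr20:4668645-4668674, minus strand): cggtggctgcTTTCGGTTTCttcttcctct
Tap2 (chr20:4652318-4652347, minus strand): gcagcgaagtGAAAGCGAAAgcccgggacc
Tapbp (chr20:4967884-4967913, minus strand): gcctttgaggGAAAATGAAAgtgaaaggaa
Psmb10 (chr19:50743346-50743375, minus strand): aagcaaaggcGAAAGTGAAAgagaagatgc
Psme2 (chr15:33052785-33052814, minus strand): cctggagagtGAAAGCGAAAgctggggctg
The core lay 150 bases before the start of B2m, 121 before Tap1, 53 before Psme2 and 41 before Tap2. Tapbp held 2 overlapping matches, at 26 and 20 bases before the start, Psmb10 held 2, at 73 and 17 bases, and the match of Psmb8 spanned the gene start itself. A match is a string of letters and does not show that a factor was bound.

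**Figure D1:**
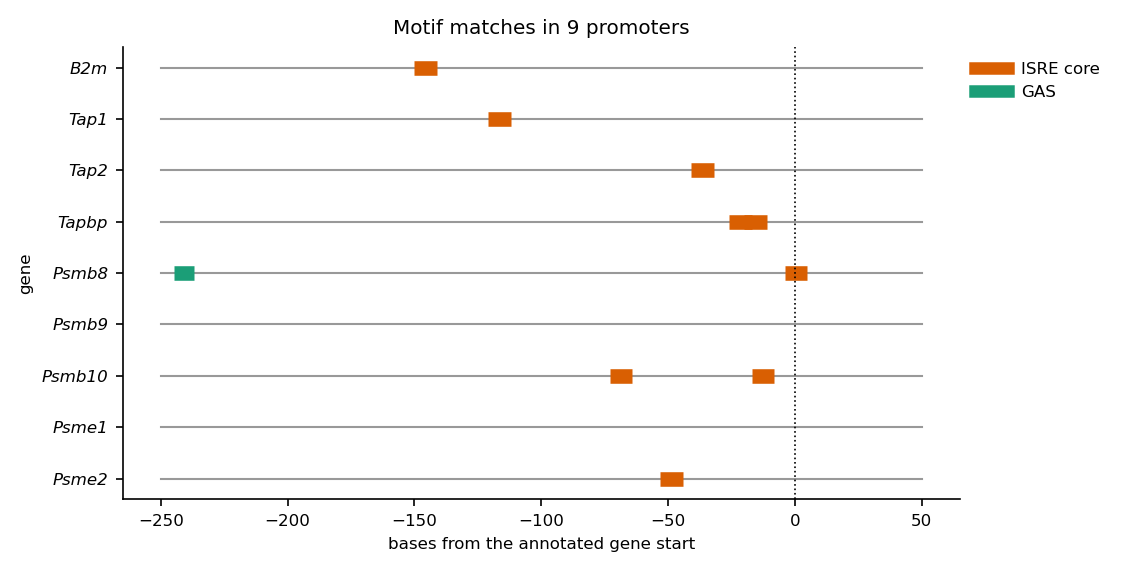
Matches of the ISRE core (orange) and the GAS motif (green) in the promoters of 9 genes, by distance in bases from the annotated gene start; grey lines are the 300 bases searched. In 7 of the 9 promoters an ISRE core is seen, within 150 bases of the start.

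The entries lie on 4 chromosomes, given here as the tables' own annotation has them (its build is not named there). Psmb9 (20:3973420-3978845, minus strand), Tap1 (20:3979035-3989669, plus strand), Psmb8 (20:3990613-3993769, plus strand) and a Tap2 entry, ENSRNOG00000000455 (20:3995544-4009587, plus strand), are neighbours. The spans of Psmb9 and Tap1 point away from each other with 189 bases between them. The ISRE core found before the start of Tap1 in GRCr8 thus lies on the side that faces Psmb9. Its distance from the start of Psmb9 was not measured. The other Tap2 entry, ENSRNOG00000046031 (20:5198258-5212624, minus strand), and Tapbp (20:5468056-5476007, minus strand) lie further along the same chromosome. B2m is at 3:114087287-114093309, Psme1 at 15:34256071-34258947, Psme2 at 15:34265557-34269851, Psmb10 at 19:37909546-37912027 and Nlrc5 at 19:10905542-10976396. The Tap2 entries carry the same name and may share reads, so their separate values are uncertain. Psme1 is uncertain as well, because Emc9 covers 89.5% of its span on the opposite strand and the libraries kept no strand.

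Levels differed widely between entries. Per length, as FPKM (fragments per kilobase of transcript, scaled to library size) over all 33 libraries, B2m averaged 257, Psmb10 46.1, Psme2 32.7, Tapbp 13.4 and Tap1 10.9. The Tap2 entries averaged 1.67 and 1.26 FPKM, Psmb9 0.836, Psmb8 0.391, Psme1 0.187 and Nlrc5 0.083. The abundant class I light chain thus stood beside a transporter whose Tap1 subunit was far above either Tap2 entry, and beside 1 immunoproteasome subunit, Psmb10, far above the other 2. Psme1 had 0 to 14 counts per library and never passed the filter on low counts, Nlrc5 had 2 to 35 and Psmb8 5 to 52, so changes in these genes rest on few reads. At most 10 of the 11 entries were therefore tested.

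Of the 8 myoblast markers listed, Myod1 ran from 17.1 to 146 CPM (counts scaled by the library's total to the same size for each library), Myog from 10.4 to 359 and Cdh15 from 190 to 599, while Myf5 was at 0 in 30 of 33 libraries. The muscle genes Des and Chrna1 were low, with medians of 1.82 and 1.60 CPM. Of the 5 fibroblast markers, Col1a1 (5403 to 27702 CPM), Col1a2 (772 to 4542 CPM) and Thy1 (79.8 to 261 CPM) were well above 0 in every library. Pdgfra (0.025 to 0.846 CPM) and Dcn (median 4.41 CPM) were low. Of the 7 immune cell markers, Ptprc ran from 0 to 0.188 CPM, and Cd14, at 10.6 to 22.3 CPM, made up most of the list. The summed immune list ran from 24.6 to 26.6 CPM in MC in hypoxia and from 14.5 to 22.3 CPM with the mimics in hypoxia; its part in the results below was not tested. Of the 5 endothelial markers, Pecam1, Cdh5 and Kdr were not among the genes of the expression tables. Vwf ran from 0 to 0.331 CPM and was at 0 in 11 libraries, so Tek made up most of the list. The sum of Tek and Vwf was 4.43 to 4.60 CPM in MC in hypoxia against 0.69 to 2.68 CPM with the mimics in hypoxia. In a bulk sample, fewer cells of a type and less RNA per cell cannot be told apart.

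Replicate 1 of miR-125b in normoxia and replicate 1 of Plus A in normoxia went against their labels. Cav1, the gene of caveolin-1, measured 93.9 to 100.2 CPM in the Plus A libraries in hypoxia and 98.0 and 98.3 CPM in Plus A replicates 2 and 3 in normoxia. It measured 269 CPM in the library labelled Plus A replicate 1 in normoxia and 102 CPM in the library labelled miR-125b replicate 1 in normoxia, whose fellow libraries had 282 and 263 CPM. Calls that use these libraries were also made without both.

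The first question was what miR-125b and each isomiR did to the pathway in hypoxia, against MC. The clearest change was in Tapbp, which fell with all 5 mimics. Tap1 went the other way and rose with 3 of them, and Psmb10 rose with the 3 trimmed forms. A gene was called changed at an adjusted p below 0.05 (edgeR's quasi-likelihood test, Benjamini-Hochberg over all genes tested) together with a change of at least 1.5-fold. By this rule 2 of 10 tested entries were called under miR-125b (21.9% of all genes tested), 4 under Plus A (24.8%), 5 under Trim A (28.1%), 4 under Trim AG (37.2%) and 4 under Trim AGU (23.8%). The shares of the members were thus near or somewhat above those of all genes, and called members went in both directions in every comparison. Both Tap2 entries, which may share reads, are counted among the 5 under Trim A. The median log2 fold change of the members was 0.21 for miR-125b and -0.01 for Plus A, then -0.04, -0.14 and 0.00 for the trimmed forms from the longest to the shortest. Over all genes the medians were between -0.02 and 0.00.

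Tapbp measured 39.5, 41.3 and 40.5 CPM in the MC libraries in hypoxia. It measured 23.5, 24.1 and 24.6 CPM with miR-125b, 21.5, 22.3 and 22.9 CPM with Plus A, and 20.7, 16.4 and 16.5 CPM with Trim A. With Trim AG it measured 14.7, 12.1 and 12.2 CPM, and with Trim AGU 21.4, 16.3 and 16.9 CPM. All 3 MC libraries lay above each of the 30 other libraries, in hypoxia and normoxia alike, in which the highest value was 24.6 CPM. The log2 fold changes against MC in hypoxia were -0.71 ± 0.05 (SE) under miR-125b (adjusted p = 4e-07), -0.84 ± 0.06 under Plus A (1.1e-06), -1.13 ± 0.10 under Trim A (5.4e-05), -1.57 ± 0.09 under Trim AG (2.9e-06) and -1.01 ± 0.12 under Trim AGU (0.0025). Each of these calls held in every alternative fit tried. The authors' means for normoxia point the same way: 597 for Plus A against 1305 for MC, on their scale of normalized counts, a ratio of 0.458 with no test.

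Tap1, the pump subunit with the higher level, measured 44.5, 40.6 and 41.7 CPM in MC in hypoxia. It measured 72.6, 73.4 and 72.8 CPM with miR-125b and 73.8, 75.2 and 75.9 CPM with Plus A. The trimmed forms gave lower and more scattered values, with 62.6, 52.8 and 54.9 CPM under Trim A, 67.5, 45.9 and 54.1 CPM under Trim AG, and 66.0, 55.1 and 52.3 CPM under Trim AGU. Every library with a mimic lay above every MC library in hypoxia. Tap1 rose with miR-125b (log2 fold change 0.82 ± 0.04, adjusted p = 5.9e-08) and Plus A (0.85 ± 0.05, 5.8e-07), and these calls held in every alternative. With Trim A the change was 0.47 ± 0.08 (0.0015) and with Trim AG 0.46 ± 0.12 (0.011), both under 1.5-fold. Trim AGU just passed (0.59 ± 0.12, 0.012). That call was lost without any 1 of the 3 MC libraries or without Trim AGU replicate 1 or 2 (log2 fold change 0.53 to 0.63, adjusted p 0.0021 to 0.073), and fell short of 1.5-fold without the filter on low counts or with all libraries in 1 fit. In normoxia the authors' means were 1049 for Plus A and 732 for MC.

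The opposite moves of Tap1 and Tapbp can be read within a library, free of scaling between libraries. The ratio of Tap1 to Tapbp, in FPKM, was 0.371 to 0.425 in MC in hypoxia and 1.12 to 1.73 in the 15 libraries with a mimic in hypoxia. In normoxia the ratio was 0.331 to 0.696. The hypoxic libraries with a mimic therefore did not overlap either of the other sets. Against MC in hypoxia this follows from the separate values, since neither gene overlapped there. The ratio, which pairs genes seen to move apart, thus adds no further evidence against MC.

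**Figure D2:**
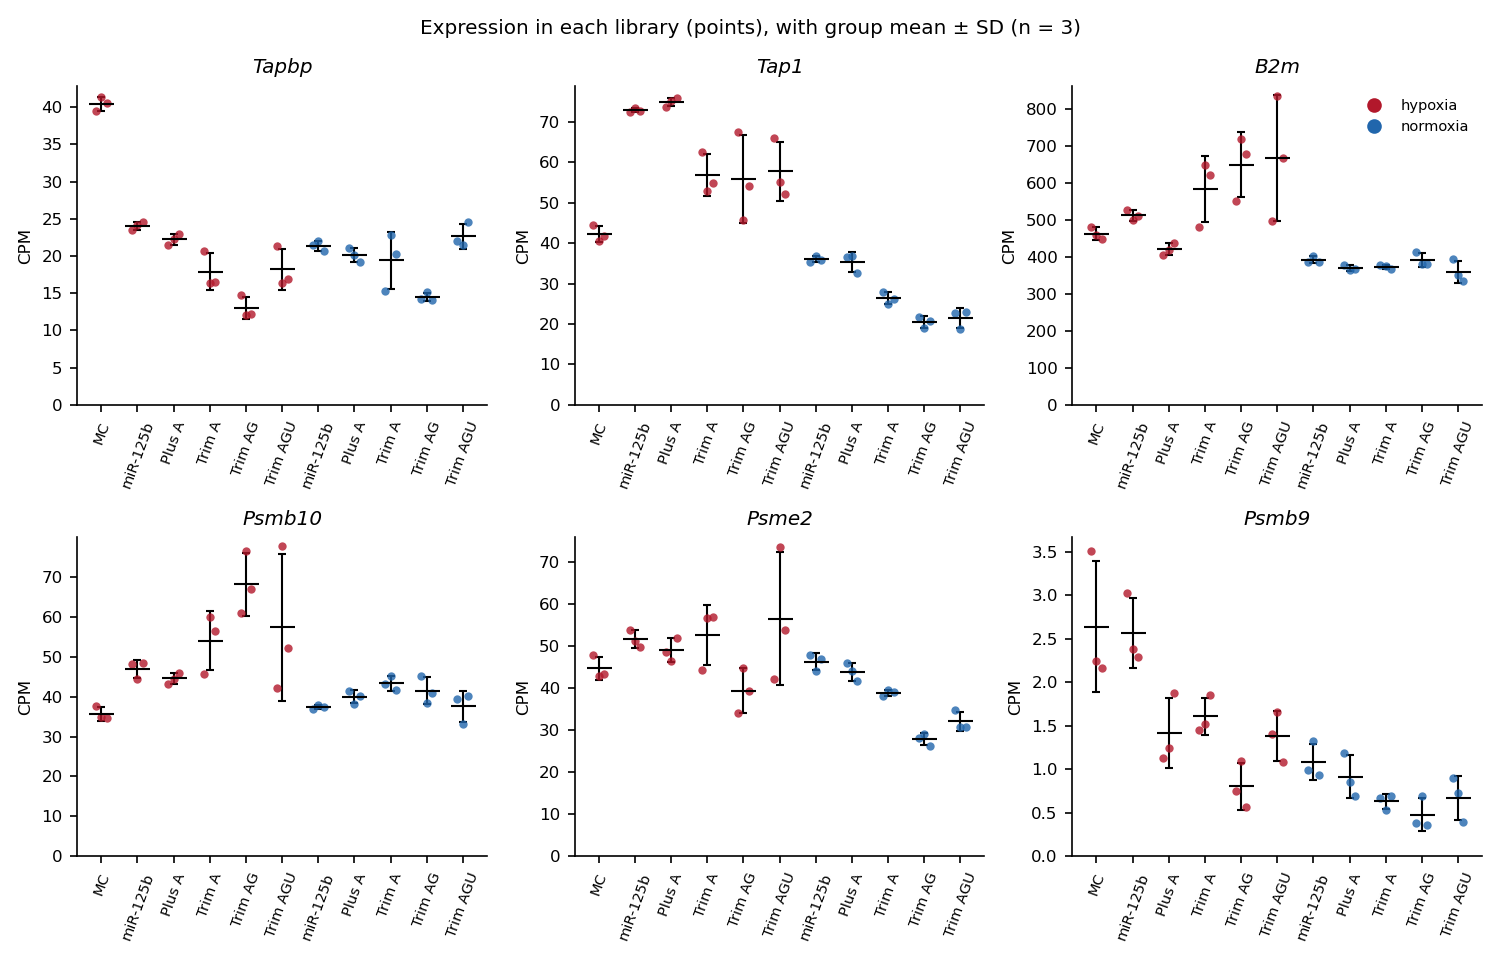
CPM of 6 genes in each of 33 libraries, by mimic; red points are hypoxia, blue points normoxia, and bars are the group mean ± SD of 3 libraries, on axes from 0. Tapbp stands at 39.5 to 41.3 CPM in MC in hypoxia and at 24.6 CPM or less in every other library, and Tap1 is above its normoxic level under every mimic.

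Among the immunoproteasome subunits, Psmb10 and Psmb9 moved apart. Psmb10 measured 37.7, 34.8 and 34.6 CPM in MC in hypoxia, 45.7, 59.8 and 56.4 CPM with Trim A, 60.9, 76.5 and 67.0 CPM with Trim AG, and 42.1, 77.6 and 52.2 CPM with Trim AGU. No library of these 3 groups overlapped MC. Psmb10 rose with Trim A (log2 fold change 0.64 ± 0.11, adjusted p = 0.0016), with Trim AG (1.00 ± 0.10, 5.4e-05) and with Trim AGU (0.85 ± 0.26, 0.0498). With miR-125b it was 0.43 ± 0.06 (5.3e-05) and with Plus A 0.34 ± 0.06 (5.2e-04), both under 1.5-fold. The Trim A call was lost without Trim A replicate 2 (0.55, 0.0050). The Trim AGU call was lost without any 1 of the MC libraries or without Trim AGU replicate 2 or 3 (0.48 to 0.97, adjusted p 0.0056 to 0.154).

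Psmb9 measured 3.50, 2.25 and 2.16 CPM in MC and 3.02, 2.39 and 2.29 CPM with miR-125b in hypoxia. It measured 1.14, 1.25 and 1.88 CPM with Plus A, 1.45, 1.52 and 1.85 CPM with Trim A, 0.75, 1.1 and 0.56 CPM with Trim AG, and 1.41, 1.66 and 1.09 CPM with Trim AGU. Thus the MC and miR-125b libraries were above all 12 isomiR libraries in hypoxia. Psmb9 fell with Trim AG (log2 fold change -1.65 ± 0.31, adjusted p = 0.0019), in every alternative. It fell with Plus A (-0.87 ± 0.27, 0.020) and Trim A (-0.67 ± 0.24, 0.0487), and was -0.78 ± 0.32 with Trim AGU (0.11). The Plus A call was lost without MC replicate 1, Plus A replicate 1 or Plus A replicate 2 (adjusted p 0.052 to 0.096). The Trim A call was lost without any 1 library other than MC replicate 3 (0.058 to 0.19), by DESeq2 (0.067) and in 3 other fits. Psmb8 had 5 to 34 counts in these hypoxic libraries, its groups overlapped MC, and its log2 fold changes lay between -0.16 and 0.52, none called.

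The constitutive partners give these subunits a scale. The ratio of Psmb8 to Psmb5, in FPKM, was at most 0.0076 in the 33 libraries, and that of Psmb9 to Psmb6 at most 0.0184. The ratio of Psmb10 to Psmb7 was 0.530 to 1.06, with 0.983 to 1.06 in Trim AG in hypoxia. By transcript, Psmb10 was close to its constitutive partner and the other 2 immunoproteasome subunits were far below theirs. Over the wider list of 16 constitutive proteasome genes tested, none was called under miR-125b or Plus A, 3 rose under Trim A, 4 under Trim AG and 7 under Trim AGU, and none fell. Over all genes tested, 12.4%, 17.0% and 11.4% rose with the 3 trimmed forms, so the share of proteasome genes was near that of all genes for Trim A and Trim AG. Among them Psmb6 rose by 0.75, 0.73 and 1.13 (log2) with Trim A, Trim AG and Trim AGU. Psma7, a subunit of the outer ring, rose by 0.70, 0.72 and 1.02. In the Trim AGU libraries in hypoxia Psmb6 was at 166, 367 and 226 FPKM. The library at 367 FPKM was replicate 2, which had the fewest genes counted. How far the 7 calls under Trim AGU rest on it was not examined.

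**Figure D3:**
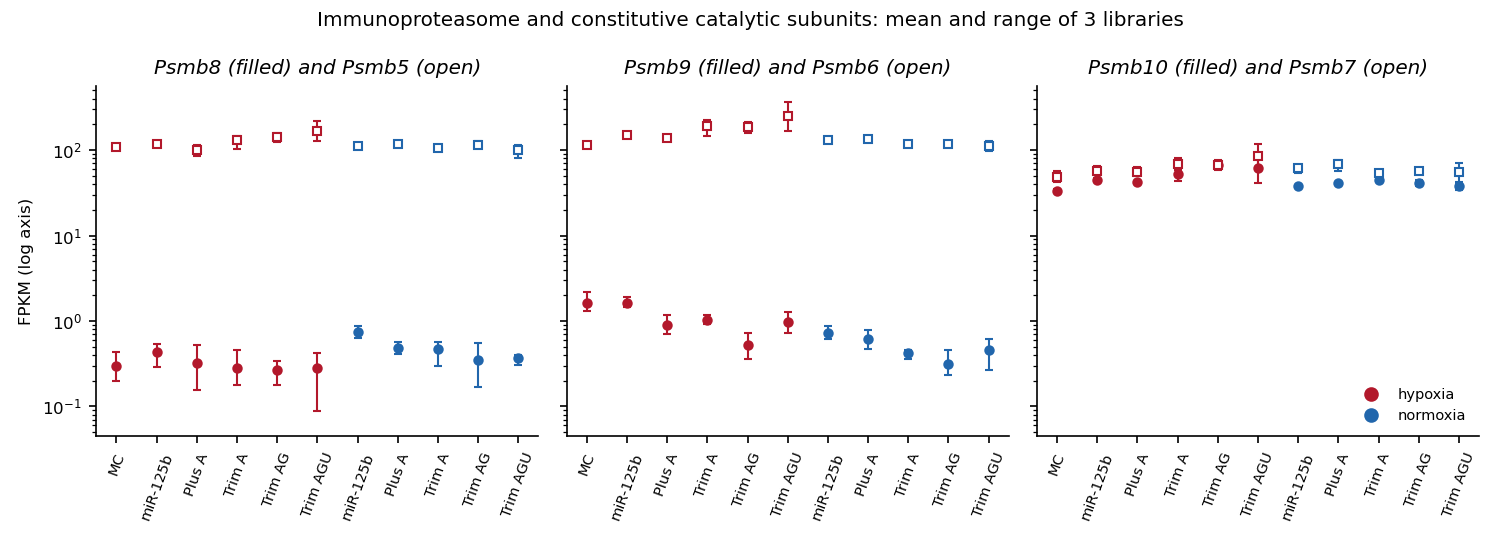
FPKM, on a log axis, of each immunoproteasome subunit (filled circles) and its constitutive partner (open squares) in 11 groups; symbols are means and bars the range of 3 libraries, red for hypoxia and blue for normoxia. The ratio to the partner is at most 0.0184 for Psmb8 and Psmb9 and from 0.530 to 1.06 for Psmb10.

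Tap2, the partner of Tap1 in the pump, did not rise with it against MC. Entry ENSRNOG00000046031 measured 9.52, 8.43 and 8.20 CPM in MC in hypoxia, 6.18, 4.08 and 5.56 CPM with Plus A, 6.66, 3.61 and 3.68 CPM with Trim A, and 6.15, 3.88 and 5.06 CPM with Trim AG. All 9 of these isomiR libraries were below MC. The entry fell with Plus A (log2 fold change -0.70 ± 0.16, adjusted p = 0.0043), Trim A (-0.87 ± 0.24, 0.015) and Trim AG (-0.73 ± 0.18, 0.0064). Entry ENSRNOG00000000455 fell with Trim A alone among the 5 (-0.94 ± 0.17, 0.0025). With both entries summed, a fit added after the data were seen, Tap2 fell with Plus A (-0.59 ± 0.11, 0.0014) and Trim A (-0.89 ± 0.19, 0.0048) and was -0.57 ± 0.12 with Trim AG (0.0029), under 1.5-fold. The Plus A call of entry ENSRNOG00000046031 was lost without Plus A replicate 2 (-0.54, 0.014) and with all libraries in 1 fit (0.054), and its Trim A call without MC replicate 1 or Trim A replicate 3 (0.053 and 0.053).

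B2m and Psme2 were not called against MC. B2m measured 482, 459 and 448 CPM in MC in hypoxia, 528, 499 and 511 CPM with miR-125b and 406, 418 and 438 CPM with Plus A. It measured 482, 649 and 621 CPM with Trim A, 552, 720 and 679 CPM with Trim AG, and 498, 837 and 669 CPM with Trim AGU. All trimmed forms scattered widely, and the largest log2 fold change, 0.69 ± 0.23 with Trim AGU, had an adjusted p of 0.061. The Trim AGU library at 837 CPM was replicate 2, the library with the fewest genes counted. With Trim AG it was 0.55 ± 0.11 (0.0023), under 1.5-fold. Psme2, the beta subunit of PA28, lay between -0.12 and 0.50 in the 5 comparisons, none called. Replicate 1 was the lowest of 3 for B2m, Psmb10 and Psme2 and the highest for Tap1 and Tapbp in Trim A, Trim AG and Trim AGU in hypoxia alike. Over 16274 genes the deviations of these replicates 1 from their group means correlated at r = 0.225 to 0.318, those of the replicates 2 at 0.151 to 0.196 and those of the replicates 3 at 0.006 to 0.036, a description across genes within libraries.

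Nlrc5, the transactivator, had 17, 11 and 23 counts in MC in hypoxia, 28, 27 and 26 with miR-125b, and 5, 3 and 6 with Trim AGU. The Trim AGU libraries were the lowest of the 18 in hypoxia. Nlrc5 fell with Trim AGU against MC (log2 fold change -1.84 ± 0.49, adjusted p = 0.031). Against miR-125b in hypoxia it fell too (-2.53 ± 0.38, 0.020). The first call was lost without any 1 library other than Trim AGU replicate 2 (adjusted p 0.054 to 0.14). The second was lost without any 1 of the miR-125b libraries or without Trim AGU replicate 3 (0.075 to 0.15). The MC, miR-125b, Plus A, Trim A and Trim AG groups lay at means of 0.554 to 0.891 CPM and none of the other 4 mimics was called against MC.

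**Figure D4:**
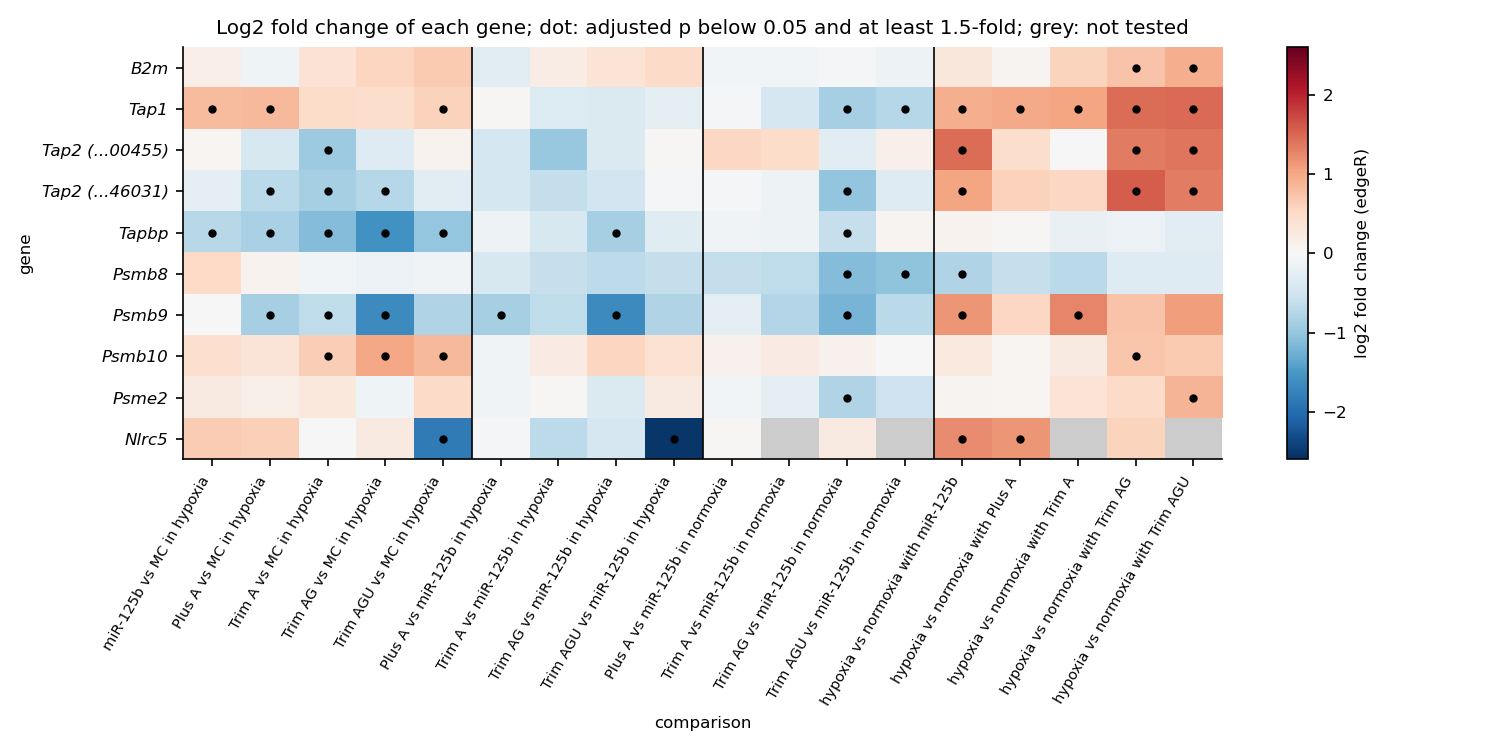
Log2 fold change (edgeR) of 10 entries, in rows, over 18 comparisons, in columns; red is higher and blue lower in the group named first, black dots mark called changes and grey cells were not tested. Tapbp is blue with a dot in all 5 columns against MC, and Tap1 is red with a dot in all 5 columns of hypoxia against normoxia.

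The second question was how the isomiRs differed from miR-125b itself. In hypoxia 1 tested entry was called under Plus A (2.03% of all genes), 0 under Trim A (0.873%), 2 under Trim AG (19.3%) and 1 under Trim AGU (3.75%). Plus A differed in Psmb9 (log2 fold change -0.87 ± 0.24, adjusted p = 0.037), a call lost without any 1 library other than Plus A replicate 3 (0.068 to 0.13). Of the abundant genes, B2m was lower with Plus A by a small step (-0.30 ± 0.04, 0.0027), with no overlap between libraries. For Trim A, edgeR called none, 5 of 10 entries had an unadjusted p below 0.05 (23.5% of all genes), and DESeq2 called 1, Tap2 entry ENSRNOG00000000455. Trim AG lowered Psmb9 (-1.65 ± 0.28, 0.0024) and Tapbp (-0.87 ± 0.09, 2.7e-04) below their levels with miR-125b, and both calls held in every alternative. With Trim AG, 7 entries passed the adjusted p alone, among them Psmb10 at 0.56 ± 0.10 (0.0034) and Tap1 at -0.37 ± 0.12 (0.037). At an unadjusted p below 0.05 there were 7 of 10 tested entries, beside 50.5% of all genes. The median of the tested members against miR-125b in hypoxia was -0.22 under Plus A, -0.51 under Trim A, -0.41 under Trim AG and -0.15 under Trim AGU, beside -0.02 to 0.00 for all genes.

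In normoxia no member was called under Plus A (0.0% of all genes) or Trim A (0.414%), while 6 entries were called under Trim AG (13.9%) and 2 under Trim AGU (11.4%), all of them lower than under miR-125b. For Plus A, edgeR and DESeq2 called 0 members and 1 of 10 had an unadjusted p below 0.05, Psmb8 (2.73% of all genes); without both doubted libraries 166 of all genes were called and still 0 members. For Trim A both tools called 0 and 6 of 9 had an unadjusted p below 0.05 (18.7% of all genes), among them Tap1 at -0.44 ± 0.07 (adjusted p = 0.017), under 1.5-fold. The median of the members under Trim AG was -0.69, and -0.34 under Trim AGU, beside 0.00 and -0.01 for all genes.

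Tap1 measured 35.4, 36.9 and 35.8 CPM with miR-125b in normoxia, 21.8, 18.9 and 20.8 CPM with Trim AG, and 22.8, 18.8 and 23.1 CPM with Trim AGU. These groups did not overlap, and Tap1 fell with both (log2 fold change -0.86 ± 0.07, adjusted p = 2.9e-05, and -0.75 ± 0.10, 9.8e-04). Psme2 measured 48.0, 44.2 and 46.9 CPM with miR-125b and 28.2, 29.2 and 26.4 CPM under Trim AG, and fell (-0.78 ± 0.06, 3.4e-05). With Trim AGU Psme2 was -0.54 ± 0.09 (0.0023), under 1.5-fold. These calls of Tap1 and Psme2 held in every alternative, also without the doubted library. Trim AG also lowered Tapbp, from 21.5, 22.0 and 20.6 CPM to 14.2, 15.2 and 14.1 CPM (-0.61 ± 0.08, 3.7e-04), a call lost without miR-125b replicate 2 or Trim AG replicate 3 (-0.58 in both, 0.0019 and 0.0035). B2m, at 413, 382 and 381 CPM with Trim AG, and Psmb10, at 45.2, 38.4 and 40.9 CPM, were at -0.05 ± 0.05 (0.51) and 0.11 ± 0.07 (0.24).

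The 3 scarcer entries called with Trim AG were lower as well. Psmb9 went from 29, 38 and 27 counts with miR-125b in normoxia to 11, 20 and 11 (-1.22 ± 0.33, adjusted p = 0.018). Psmb8 went from 52, 37 and 42 counts to 33, 10 and 20 (-1.12 ± 0.37, 0.040), and to 23, 18 and 24 with Trim AGU (-1.04 ± 0.26, 0.019). Tap2 entry ENSRNOG00000046031 was at -1.02 ± 0.34 (0.041), and its libraries overlapped. The Psmb9 call was lost without miR-125b replicate 2, Trim AG replicate 1 or Trim AG replicate 3 (0.065 to 0.071). The Psmb8 call with Trim AG was lost without any 1 library other than Trim AG replicate 1 (0.055 to 0.12), and the Tap2 call without miR-125b replicate 2 or 3 or Trim AG replicate 2 or 3 (0.064 to 0.15). The Psmb8 call with Trim AGU was lost without miR-125b replicate 1 or 3 or Trim AGU replicate 3 (0.052 to 0.072). Without both doubted libraries Psmb8 was called with neither Trim AG (-0.98, 0.10) nor Trim AGU (-0.90, 0.072), which leaves 5 entries called for Trim AG and a single entry, Tap1, for Trim AGU.

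The third question was what hypoxia did under each mimic. Of the tested entries, 6 were called under miR-125b (20.9% of all genes), 2 under Plus A (22.8%), 2 under Trim A (26.5%), 5 under Trim AG (32.8%) and 5 under Trim AGU (27.0%). All were higher in hypoxia but 1, Psmb8 with miR-125b. Both Tap2 entries, which may share reads, are counted under miR-125b, Trim AG and Trim AGU. Without both doubted libraries 5 were called with miR-125b and 2 with Plus A. The median of the members was 0.62 under miR-125b, 0.26 under Plus A, 0.36 under Trim A, 0.73 under Trim AG and 0.95 under Trim AGU, beside 0.00 to 0.02 for all genes.

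Tap1 was the member that rose under all 5 mimics. From the normoxic values of 35.4 to 36.9 CPM with miR-125b it went to 72.6 to 73.4 CPM, and with Plus A from 32.6 to 37.0 CPM to 73.8 to 75.9 CPM. With Trim A it went from 24.9 to 27.9 CPM to 52.8 to 62.6 CPM, with Trim AG from 18.9 to 21.8 CPM to 45.9 to 67.5 CPM, and with Trim AGU from 18.8 to 23.1 CPM to 52.3 to 66.0 CPM. No group overlapped its hypoxic partner. The log2 fold changes were 0.93 ± 0.05 (adjusted p = 8e-07), 0.98 ± 0.06 (2.6e-06), 1.03 ± 0.09 (3.4e-05), 1.45 ± 0.13 (3e-05) and 1.46 ± 0.16 (8.3e-04) in that order, and all 5 calls held in every alternative. The order of the group means put all 6 hypoxic groups above all 5 normoxic ones. Plus A stood first at 75.0 CPM and miR-125b second at 72.9 CPM, Trim AGU, Trim A and Trim AG followed at 57.8, 56.8 and 55.8 CPM with overlapping libraries, and MC in hypoxia was lowest of the 6 at 42.3 CPM.

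Tapbp showed no such rise, with log2 fold changes between -0.28 and 0.09, none called. The Tap2 entries rose with miR-125b (1.45 ± 0.24 and 1.02 ± 0.30), Trim AG (1.36 ± 0.42 and 1.57 ± 0.23) and Trim AGU (1.39 ± 0.33 and 1.32 ± 0.32; adjusted p 3.9e-04 to 0.021 over the 6 values). Summed, they went from 3.66 to 6.74 CPM to 10.2 to 13.6 CPM with miR-125b, from 2.29 to 3.87 CPM to 7.69 to 9.39 CPM with Trim AG, and from 3.31 to 5.09 CPM to 9.79 to 11.9 CPM with Trim AGU. Summed, the entries were called in these 3 comparisons and were at 0.54 ± 0.21 (0.054) with Plus A and 0.32 ± 0.20 (0.22) with Trim A. For the entry listed first, the Trim AG call was lost without Trim AG replicate 1 or 3 in normoxia or Trim AG replicate 2 in hypoxia (0.051 to 0.071), and the Trim AGU call without Trim AGU replicate 1 or 2 in normoxia (0.070 and 0.074). For the other, the miR-125b call was lost without miR-125b replicate 2 in normoxia or replicate 3 in hypoxia (0.053 and 0.055), and the Trim AGU call without Trim AGU replicate 2 or 3 in normoxia or replicate 3 in hypoxia (0.063 to 0.077).

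B2m rose in hypoxia with Trim AG, from 413, 382 and 381 CPM to 552, 720 and 679 CPM (0.74 ± 0.11, adjusted p = 5.8e-04), and with Trim AGU, from 394, 352 and 336 CPM to 498, 837 and 669 CPM (0.95 ± 0.24, 0.022). The first call held in every alternative, and the second was lost without any 1 of the normoxic Trim AGU libraries or without Trim AGU replicate 3 in hypoxia (0.059 to 0.094). Psmb10 rose with Trim AG (0.72 ± 0.11, 5.3e-04), again in every alternative. Psme2 rose with Trim AGU (0.88 ± 0.25, 0.032), a call lost without any 1 library other than Trim AGU replicate 1 in hypoxia (log2 fold change 0.56 to 0.96, adjusted p 0.010 to 0.11).

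Psmb9 rose in hypoxia with miR-125b (1.16 ± 0.22, 0.0019), from 0.94 to 1.32 CPM to 2.29 to 3.02 CPM, and with Trim A (1.27 ± 0.25, 0.0035), from 0.54 to 0.69 CPM to 1.45 to 1.85 CPM, and both calls held in every alternative. With the other 3 mimics Psmb9 was at 0.53 to 1.09, not called. Psmb8 fell with miR-125b, from 52, 37 and 42 counts to 34, 31 and 19 (-0.79 ± 0.28, 0.042), which was lost without 4 of the 6 libraries, both replicates 3, miR-125b replicate 1 in normoxia and replicate 2 in hypoxia (0.073 to 0.13), and by DESeq2 (0.089). Nlrc5 rose with miR-125b (1.22 ± 0.34, 0.014) and Plus A (1.14 ± 0.37, 0.027), from 7 to 15 counts per library to 22 to 35. By DESeq2 neither was called (0.052 and 0.090). The miR-125b call was lost without miR-125b replicate 1 in hypoxia (0.0502), and the Plus A call without Plus A replicate 2 or 3 in normoxia or replicate 3 in hypoxia (0.060 to 0.11).

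Whether an isomiR differed from miR-125b by another amount in hypoxia than in normoxia was tested as an interaction. edgeR called 0 members for Plus A (0.0193% of all genes), Trim A (0.605%), Trim AG (11.3%) and Trim AGU (0.966%), with 2, 2, 5 and 5 of the 10 tested members at an unadjusted p below 0.05, beside 16.1%, 22.4%, 36.0% and 22.1% of all genes. DESeq2 called 0, 1, 0 and 0, the 1 being Tap2 entry ENSRNOG00000000455. For Trim AG, 4 members passed the adjusted p under the 1.5-fold step, each with a difference from miR-125b that was higher in hypoxia than in normoxia: Tap1, B2m, Psmb10 and Psme2, at 0.48 ± 0.14, 0.40 ± 0.13, 0.44 ± 0.13 and 0.40 ± 0.13 (log2; adjusted p = 0.032, 0.037, 0.026 and 0.048). Tapbp was at -0.28 ± 0.12 (0.11). The median interaction of the members was -0.14 for Plus A, 0.04 for Trim A, 0.40 under Trim AG and 0.38 under Trim AGU, beside -0.02 to 0.02 for all genes.

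**Figure D5:**
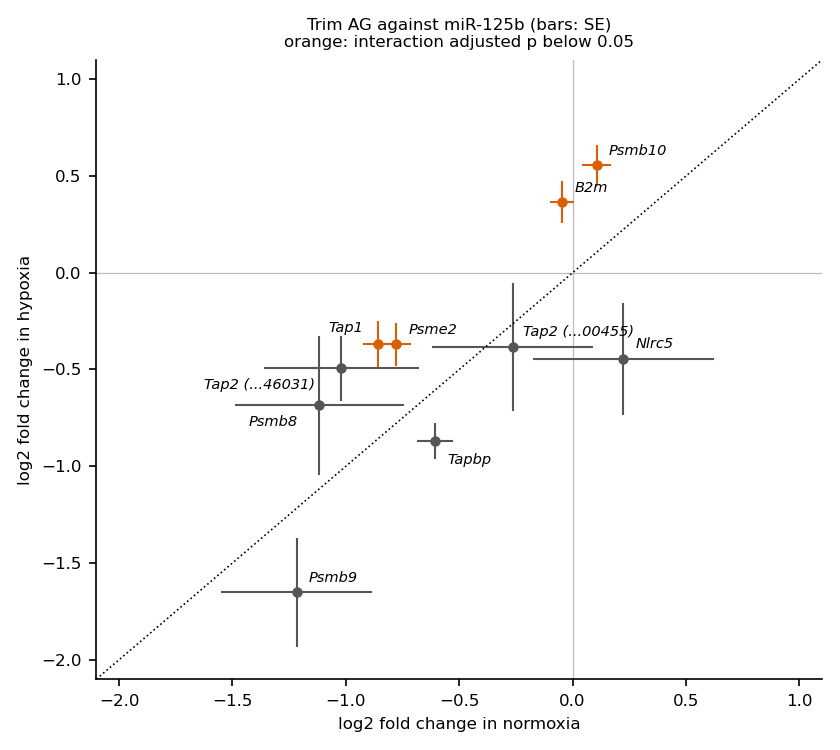
Log2 fold change of Trim AG against miR-125b in normoxia (horizontal) and in hypoxia (vertical) for 10 entries, with SE bars; the dotted line marks equal change and orange marks an interaction with adjusted p below 0.05. Tap1, B2m, Psmb10 and Psme2 lie above the line by 0.40 to 0.48.

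Genes around the pathway gave it a setting. Of 28 interferon and NF-kB signalling and promoter genes tested against MC in hypoxia, 1 rose and 6 fell under miR-125b, 0 and 9 under Plus A, 0 and 8 under Trim A, 3 and 10 under Trim AG, and 2 and 9 under Trim AGU. Of all genes tested, 9.43% to 17.0% rose and 12.4% to 20.2% fell in these comparisons, both shares being highest for Trim AG. Stat3, a transcription factor that serves interleukin-6 and related cytokines, fell with all 5 mimics (log2 fold change -1.07, -1.07, -1.22, -1.78 and -1.34). Irf1, which binds ISRE sequences, fell with Plus A (-0.65), Trim AG (-1.48) and Trim AGU (-0.81), and Irf7, another factor of that family, with the 3 trimmed forms (-0.76, -1.27 and -0.87). The scarcer Irf8 fell with Plus A (-1.81), and Ciita, the class II counterpart of Nlrc5, rose with Trim AG (1.32) at a mean of 1.18 CPM against 0.492 CPM. Rfx5, a subunit of the factor through which Nlrc5 acts on class I promoters, is outside the rule for named genes and was chosen after its values were seen. It fell with all 5 mimics (-0.92, -0.84, -1.16, -0.87 and -1.06). The median of this list lay between -0.41 and -0.28 in the 5 comparisons.

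Of 7 interferon-stimulated genes tested outside the pathway, 0 rose, while 3 fell under miR-125b, 2 under Plus A, 3 under Trim A, 6 under Trim AG and 4 under Trim AGU, to be read beside the shares of all genes that fell, 12.4% to 20.2%. With Trim AG, Isg15, a ubiquitin-like protein, fell by 1.93 on the log2 scale and Gbp2, a guanylate-binding protein, by 0.88. Against miR-125b in normoxia, 2 of 6 of these genes fell with Trim AG, Gbp2 (-0.92) and Ifit1 (-1.01), and 1 rose, Mx2 (0.73). Of all genes tested, 6.36% fell and 7.58% rose in that comparison.

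The other class I genes were thinly covered. Of 27 entries named as rat class I heavy chains (RT1), 9 averaged at least 1 CPM. These genes are near-identical copies whose reads can be split or lost in counting, so their values are uncertain. Of the 11 to 14 entries tested against MC in hypoxia, 1 to 3 rose and 1 to 4 fell. Of all genes tested, 9.43% to 17.0% rose and 12.4% to 20.2% fell. The median log2 fold change of the entries was 0.22 under miR-125b, 0.23 under Plus A and 0.02 under Trim A. It was -0.54 under Trim AG and -0.52 under Trim AGU. In hypoxia against normoxia, 0 of 13 rose and 4 fell with Trim AG (median -0.64). With Trim AGU, 0 of 11 rose and 3 fell (-0.43). Among all genes tested, 14.98% rose and 17.82% fell with Trim AG, and 13.62% and 13.35% with Trim AGU. Whether the counts of these entries differ from those shares was not tested. B2m and Tap1 rose in hypoxia with Trim AG and with Trim AGU. With the other mimics 1 to 2 entries rose and 2 to 3 fell, beside 9.34% to 11.99% and 11.53% to 14.52% of all genes. Among the chaperones and trimming enzymes that finish class I molecules, Canx, the membrane lectin calnexin, was the 1 of 6 called against MC in hypoxia. It rose with miR-125b (0.79), Plus A (0.84), Trim A (1.06) and Trim AGU (0.65). With Trim AG none of the 6 was called. In these comparisons with MC, 9.43% to 17.0% of all genes tested rose. Of 5 class II genes listed, none averaged 1 CPM.

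The genes most like Tap1 over the 11 group means of log2 CPM, among the 13162 genes averaging 1 CPM or more, were Armc7 (Pearson r = 0.986), Nrip2 (0.983) and Cyp2u1 (0.982). For Tapbp they were Mettl7a (0.963), Npc1 (0.961) and Ppfibp2 (0.961), and for Psmb10 Pwp1 (0.966), Wdr74 (0.966) and Ccdc59 (0.964). Between members, r was 0.964 for the 2 Tap2 entries, which may share reads, and 0.889 for Psmb9 and Tap2 entry ENSRNOG00000046031. It was 0.848 for B2m and Psmb10 and 0.843 for Tap1 and Psme2, and -0.657 for Psmb10 and Tapbp. Tap1 was at 0.810 with Tap2 entry ENSRNOG00000046031 and at 0.777 with entry ENSRNOG00000000455. For the neighbours Tap1 and Psmb9 it was 0.745. The group means share libraries, depth and the oxygen step, so these values are descriptions.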

How the data were processed

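Poly-A RNA from H9C2 cells was sequenced without strand information. The authors aligned reads and quantified genes, and the submitters' processing notes name HISAT2 and StringTie; versions, roles and the genome build are not given in the sources used here. The deposited tables hold raw read counts and FPKM per library, per the file headers, for 33 libraries, and for the remaining 3 (MC in normoxia) the authors' group means, a normalized count signal with no spread. The authors' own fold change and p-value columns were not used.

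Tables were joined on gene identifier (a gene absent from a table counted as 0; 0 conflicts between tables). CPM was computed from each library's total. FPKM was used only to compare genes. Each pair of groups (n = 3 each) was tested with edgeR 4.0.16 (TMM, filterByExpr, quasi-likelihood; R 4.3.3), with Benjamini-Hochberg adjustment over all genes tested; a call needed an adjusted p below 0.05 and 1.5-fold. The scripts were tested on simulated data. Alternatives were DESeq2 1.42.0, no filter, no fold threshold, a single fit of all libraries, a block for replicate number, and leaving out each library in turn or both doubted ones. An exact permutation test of 3 against 3 libraries cannot go below p = 0.10, so none is given. SE is the standard error of a log2 fold change. Depth is given as the range and median of library totals, was highest in Trim AG in hypoxia, and limits the genes of low count.

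All members are described. From the other lists, genes called in at least 1 comparison with MC or miR-125b and averaging at least 1 CPM in a group could be named, up to 6 per list by size of change. Some items are not reported here. The members and lists were chosen with earlier results of these data known.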

Additional observations from a re-analysis of the deposited data

Results flagged for a closer look

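For 4 members the difference of Trim AG from miR-125b was not the same in hypoxia and in normoxia (edgeR interaction, adjusted p below 0.05). The share of all genes at that adjusted p alone was not counted. At an unadjusted p below 0.05 there were 5 of 10 tested members and 36.0% of all genes. With the 1.5-fold step 0 members and 11.3% of all genes were called. The interaction was 0.48 for Tap1, 0.40 for B2m, 0.40 for Psme2 and 0.44 for Psmb10 on the log2 scale. Psmb10 was 0.56 higher in hypoxia and 0.11 higher in normoxia, B2m 0.36 higher and -0.05, Tap1 -0.37 and -0.86, and Psme2 -0.37 and -0.78. All 4 were under 1.5-fold. With 1 library left out, the adjusted p was above 0.05 in 7 of 12 fits for Tap1 (0.050 to 0.082), 10 of 12 for B2m (0.055 to 0.087), 11 of 12 for Psme2 (0.059 to 0.11) and 4 of 12 for Psmb10 (0.053 to 0.069). Without both doubted libraries it was 0.056 for B2m and 0.095 for Psme2. With all libraries in 1 fit it was 0.17 for B2m, 0.18 for Psmb10 and 0.20 for Psme2, and with the replicate block 0.059 for B2m and 0.067 for Psme2. The value for Tap1 was below 0.05 in these 3 fits.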

How the results depend on the processing

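Of 51 calls of single entries in the 18 comparisons, 27 held in every alternative planned, 24 were lost without at least 1 library and 16 in another fit. None of the 594 alternative values of these calls and of the 4 Trim AG interactions reversed in sign. The libraries behind each loss are named beside the values above.

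Numbers of members called moved by over 1.5 times as follows. Without the fold threshold, 5 were called for miR-125b against MC, 2 for Plus A and 7 for Trim AG against miR-125b in hypoxia, 1 for Trim A against miR-125b in normoxia, 4 for hypoxia with Trim A and 4 for the Trim AG interaction. Without the filter on low counts, 2 were called for Trim AGU against MC and 1 for the Trim A interaction. DESeq2 called 1 for Trim A against miR-125b in hypoxia, 1 for hypoxia with Plus A and 1 for the Trim A interaction. With all libraries in 1 fit, 0 were called for Plus A and 2 for Trim AGU against miR-125b in hypoxia, 1 for Trim AGU in normoxia and 2 for the Trim AGU interaction. Without both doubted libraries, 1 was called for Trim AGU in normoxia. With each library left out in turn, counts ran from 2 to 3 (miR-125b), 3 to 4 (Plus A), 3 to 5 (Trim A), 4 to 5 (Trim AG) and 1 to 4 (Trim AGU) against MC, and from 0 to 1, 0 to 2, 2 to 4 and 0 to 2 for the isomiRs in the same order against miR-125b in hypoxia. In normoxia they were 0 and 0 for Plus A and Trim A, 2 to 5 for Trim AG and 1 to 3 for Trim AGU, and for hypoxia against normoxia 4 to 5, 1 to 4, 2 to 3, 4 to 6 and 1 to 6. The interactions gave 0, 0 to 1, 0 to 1 and 0 to 2. Counts grew by over 1.5 times against miR-125b in hypoxia without Trim A replicate 1 (2), Trim AG replicate 1 (4) and Trim AGU replicate 1 or 2 (2 each), for hypoxia with Plus A without its hypoxic replicate 2 (4), and for the interactions without hypoxic Trim A replicate 1 (1), Trim AG replicate 2 (1) and Trim AGU replicate 1 (2). The cause was not tested.

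Replicate numbers are shared between groups, but same-numbered libraries of the groups compared did not deviate together: in the 18 comparisons the correlation of their deviations over 16274 genes was -0.160 to 0.074 and exceeded 0.1 in all 3 pairs of 0 comparisons. With the replicate block, 2 members were called for Trim AGU against MC, 0 for Plus A and 0 for Trim AGU against miR-125b in hypoxia and 2 for hypoxia with Trim AGU. Depth limits Psme1, Nlrc5 and Psmb8, with at most 14, 35 and 52 counts in a library.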
